A study of Homo sapiens with 5 samples.

Results

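Of the genes that carry glucose through a cell, 37 were followed in HT-29 tumours grown in mice on 4 foods: glucose transporters, the enzymes of glycolysis, the enzymes that set fructose-2,6-bisphosphate, lactate dehydrogenases and lactate transporters, pyruvate dehydrogenase and its kinases, and enzymes of the pentose phosphate pathway and of glycogen. They were chosen by name from the 26364 genes listed for each library, and 34 of them had enough counts to be tested. HT-29 is an established human colon cancer line. Its cells were placed under the skin of the back of female NOD SCID mice, 5 weeks old, which lack T and B cells, and the animals were kept on their food for 2 weeks before the tumours were taken for mRNA sequencing. All mice were of the same NOD SCID strain and no gene was altered in the cells. There was 1 library from food without methionine, tryptophan and niacin (called the combined omission here), 1 from food without tryptophan and niacin, 2 from food without methionine, and 1 from normal food. Whether both methionine-free libraries stem from different mice is not stated in the labels, so p-values measure only the spread between these libraries, which may be technical. In the main test that spread was pooled over genes, so a p-value does not reflect how its own gene varied. The comparisons ask what leaving out methionine, or tryptophan with niacin, or all 3 did to these genes, and whether methionine mattered in the same way with and without the other nutrients.

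Glycolysis splits glucose into pyruvate in the cytosol. Glucose enters through transporters of the SLC2A family and is trapped by hexokinase, and phosphofructokinase, the main control point, is driven by fructose-2,6-bisphosphate, which PFKFB enzymes make and break. Pyruvate is either reduced to lactate by lactate dehydrogenase and exported, as many tumours do even in air, or sent into mitochondria by pyruvate dehydrogenase, which PDK kinases switch off. The pentose phosphate pathway branches off after hexokinase and yields NADPH and ribose, and glycogen stores glucose. Several glycolytic genes exist as a pair of isoforms of which one is the widely expressed form and the other is induced when oxygen is low, through hypoxia-inducible factor. Niacin and tryptophan are sources of NAD, the cofactor of GAPDH and of lactate dehydrogenase.

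The libraries were shallow, with totals between 433930 counts (combined omission) and 1088080 counts (normal food). Levels are given in CPM, the usual unit for counts scaled to library size (here with TMM factors), and 1 count was worth 2.31 CPM in the shallowest and 0.927 CPM in the deepest library. A count of 0 allows a level of up to 3 counts, 2.78 to 6.94 CPM, and floors and intervals cover counting error only. Markers of intestinal epithelium were all counted in each library (10 of 10, summed level 12851 to 16126 CPM), and most of the sum was KRT8 and KRT18. CDX1 (2 to 10 counts per library), CDX2 (2 to 16) and CEACAM5 (4 to 23) were low. In methionine-free replicate 2 short transcripts ran high and long ones low: of 4 equal groups of genes by transcript length, the shortest had a median log2 difference from normal food of 0.49 and the longest one of −0.44, against 0.13 and −0.10 in replicate 1 and values within 0.02 of 0 in the other libraries. Red cell markers were at 0 in every library (4 of 4), as were the endothelial markers CDH5, VWF and KDR (3 of 4), 4 of 6 fibroblast markers (summed level 15.8 to 18.3 CPM), the leukocyte markers PTPRC and CSF1R (2 of 5) and 3 of 4 adipocyte markers. The summed leukocyte list (2059 to 3781 CPM) was nearly all LYZ. Myosin heavy chain genes of muscle were counted in the tryptophan/niacin-free library (14 counts of MYH1, 15 of MYH2 and 12 of MYH4), where the muscle list summed to 67.0 CPM, against 1.83 to 3.71 CPM in the others, with CKM, MYLPF and TTN at 0 throughout. The part of these markers in the results was not tested. In bulk tumours, fewer cells of a kind and less RNA per cell cannot be told apart.

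HK2, ENO2 and PFKFB3 fell on methionine-free food relative to normal food, by 3.88-fold, 3.64-fold and 2.99-fold. The call of PFKFB3 was close to the threshold and was lost under most other settings. PFKFB4 was 3.14-fold lower, on few counts, and did not pass the test. The other members moved less, and no pentose phosphate, glycogen or lactate gene passed the test. Abundant members had a larger SE in the fit (0.674 for GAPDH and 0.602 for ENO1) than HK2 (0.406) and ENO2 (0.404). They thus needed a larger difference to pass, so not passing does not by itself set them apart from HK2 and ENO2. By edgeR's quasi-likelihood test with Benjamini-Hochberg adjustment over 10005 genes (threshold 0.05), 3 of 34 members were lower and 0 were higher, where 0.23% of all genes were called in either direction, all of them lower. At an unadjusted p under that threshold 8 of 34 members were lower and 1 was higher, where 7.68% of all genes passed (5.21% lower and 2.47% higher). The median log2 difference was −0.20 over the members and 0.00 over all genes, and 19 of the 34 members lay below 0. DESeq2 called none of the 34, with 4 at an unadjusted p (39 of all 10005 genes), and limma-voom called HK2 and ENO2.

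The normal and the combined-omission libraries bear titles of a different style from the titles of the other 3. If the styles mark a difference in handling, diet and handling cannot be told apart wherever a library of one style is set against a library of the other. That holds for methionine-free and tryptophan/niacin-free food against normal food, for the combined omission against either single omission, and for the interaction, whose contrast is the split by style. It does not hold for the combined omission against normal food or for tryptophan/niacin-free against methionine-free food.

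In the combined omission HK2, ENO2 and PFKFB3 lay near their level on normal food (log2 differences of −0.13, −0.13 and −0.29). The combined omission against methionine-free food gave 0 of 34 members past the threshold by edgeR's test, where 0.03% of all genes were called, with 4 members higher and 1 lower at an unadjusted p, where 7.57% of all genes passed (4.62% higher and 2.95% lower). DESeq2 also called 0 and limma-voom called 1, HK2. The nearest to the threshold was HK2, with a log2 difference of 1.82 (SE 0.428, adjusted p = 0.0522). PFKFB4 (2.21, SE 0.589, adjusted p = 0.132), ENO2 (1.73, SE 0.429, 0.105) and PFKFB3 (1.29, SE 0.429, 0.350) followed in the higher direction, and DERA (−1.81, SE 0.575, 0.322) in the lower. The tryptophan/niacin-free library against the methionine-free pair gave 0 members past the threshold (0% of all genes called by edgeR), and DESeq2 and limma-voom also called 0. PDK1 was the 1 member at an unadjusted p (log2 difference −1.10, SE 0.503, adjusted p = 0.992), where 4.91% of all genes passed (2.57% higher and 2.34% lower). The median over the members was −0.28, with 27 of 34 below 0, against −0.02 over all genes.

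For 4 members the step to methionine-free food had a different effect with and without the other nutrients. The interaction takes the log2 difference of the combined omission from tryptophan/niacin-free food and subtracts that of methionine-free from normal food. It was positive and past the threshold for HK2, ENO2, PFKFB3 and PFKFB4, and negative and past it for 0 members, where 0.43% of all genes were called (0.42% positive and 0.01% negative). HK2 had the largest value among the members, 4.39 on the log2 scale (SE 0.681, adjusted p = 1.21e-06). ENO2 followed with 4.08 (SE 0.673, adjusted p = 6.3e-06), PFKFB4 with 4.06 (SE 0.906, adjusted p = 0.00395) and PFKFB3 with 3.39 (SE 0.671, adjusted p = 0.000386). At an unadjusted p 8 members were higher and 1 was lower, where 6.45% of all genes passed (4.52% higher and 1.93% lower). The median over the members was 0.46, with 23 of 34 above 0, against −0.02 over all genes. DESeq2 called none of the 4 (adjusted p = 0.0754 for HK2 and 0.327 for ENO2), and limma-voom called the same 4. Each of these values rests on single libraries for 3 of the 4 foods, which the fit assumes to vary like the methionine-free pair.

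**Figure D1:**
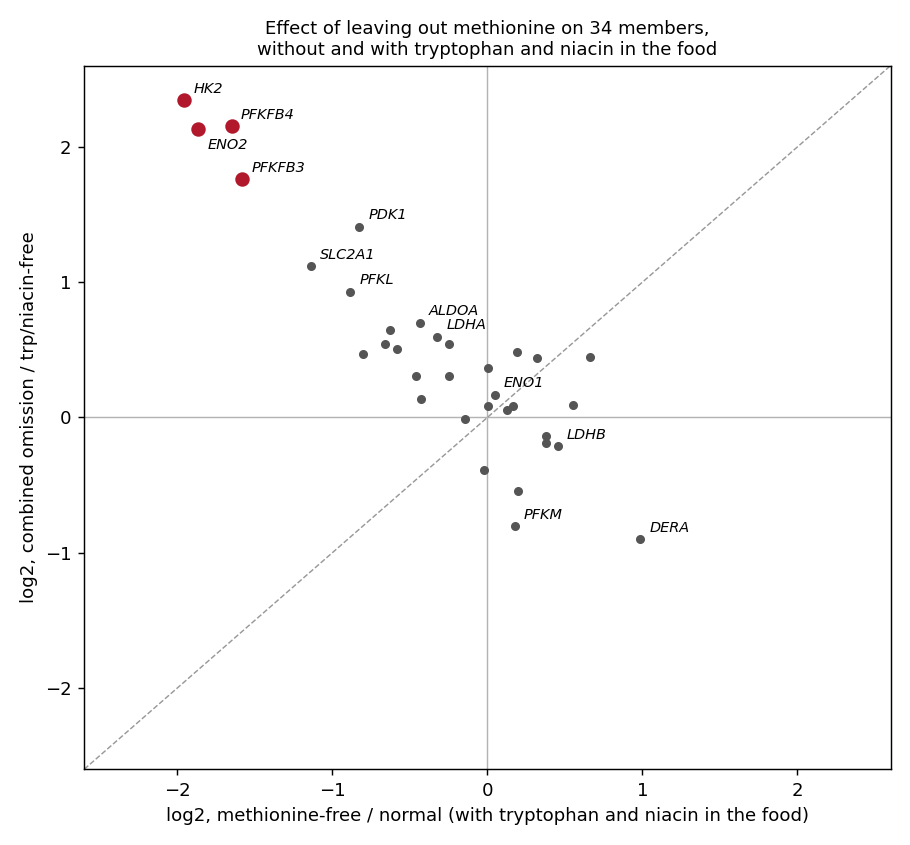
Log2 difference made by leaving out methionine for each of the 34 tested members, with tryptophan and niacin in the food (x axis, methionine-free against normal) and without them (y axis, combined omission against tryptophan/niacin-free). Red points passed the test of the interaction, the dashed line marks equal effects, and HK2 (−1.96 and 2.35), ENO2 (−1.87 and 2.13), PFKFB4 (−1.65 and 2.15) and PFKFB3 (−1.58 and 1.76) lie at the upper left.

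The libraries of 1 food each were compared by size, since no replicate stood behind them. A gene counted as different where its TMM-scaled log2 CPM differed by at least 2-fold and the 95% exact interval of its count ratio excluded 1. Between the tryptophan/niacin-free and the normal library, 7 of 34 members were lower and 0 were higher by this rule, where 3.52% of all genes were past it (2.51% lower). These were HK2, ENO2, PFKFB3, PDK1, PFKFB4, SLC2A1 and PFKL. The member median was −0.41, with 25 of 34 below 0, against −0.01 over all genes. The combined omission differed from normal food in 0 of 34 members, where 2.02% of all genes were past the rule, (0.95% higher and 1.07% lower), and the members ran between −0.75 (DERA) and 0.74 (PDHB). Between the combined omission and the tryptophan/niacin-free library 6 members were higher and 0 were lower, where 4.04% of all genes were past the rule (2.31% higher): HK2, PFKFB4, ENO2, PFKFB3, PDK1 and SLC2A1. Just outside lay PFKL, at 0.93. As a measure of what the rule gives between libraries of the same food, the methionine-free replicates differed in 0 of 34 members, while 6.6% of all genes were past it (2.43% higher and 4.17% lower in replicate 2). The foods set against the normal library, and those set against the methionine-free pair, share those libraries and are not independent of each other.

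**Figure D2:**
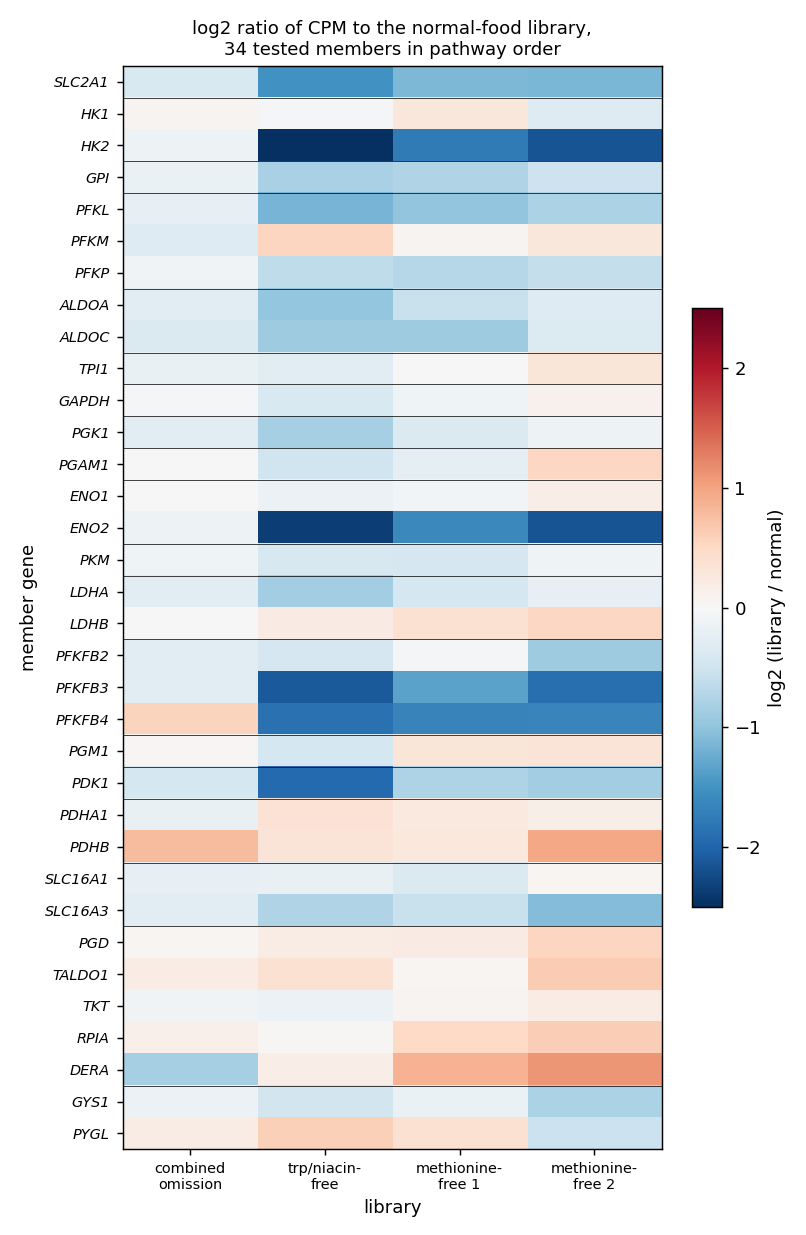
Log2 ratio of CPM to the normal-food library for the 34 tested members in pathway order (rows) in the other 4 libraries (columns). Blue is below and red above normal food. HK2, ENO2, PFKFB3 and PFKFB4 are dark blue in the tryptophan/niacin-free column and in both methionine-free columns, and the combined omission column is pale in nearly every row.

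By the same split of the libraries that the interaction makes, looked at after the values were seen, 13 of the 34 members were higher in both the combined-omission and the normal library than in each of the other 3, against 15.4% of all genes, and 5 were lower in both, against 13.9% (29.2% of all genes in either direction). The 13 were SLC2A1, HK2, GPI, PFKL, PFKP, ALDOA, ENO2, PKM, PFKFB3, PFKFB4, PDK1, SLC16A3 and GYS1. The 5 were PFKM, LDHB, PDHA1, PGD and DERA. For the other 16 members these libraries overlapped.

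SLC2A1 encodes GLUT1, the main glucose transporter of most cancer cells. It stood at 1497 CPM in the combined omission, 686 CPM in the tryptophan/niacin-free library, 893 and 883 CPM in the methionine-free libraries, and 1955 CPM on normal food. Its counts were high, 430 to 2109 per library, and the 3 libraries from the single omissions all lay below the other 2. Against normal food it was 2.85-fold lower in the tryptophan/niacin-free library (interval 2.57 to 3.17). The methionine-free pair, nearly equal to each other, gave a log2 difference of −1.14 from normal food that did not pass the test (SE 0.528, adjusted p = 0.603), and the interaction, 2.26, did not either (SE 0.835, adjusted p = 0.389). SLC2A3, which encodes the high-affinity transporter GLUT3, was listed at 0 in all 5 libraries, as was SLC2A14, a gene whose sequence is nearly the same. Why both stood at 0 was not tested, so these values do not show that GLUT3 mRNA was absent.

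Hexokinase phosphorylates glucose and thereby holds it in the cell. HK2, the inducible form, had 199 CPM in the combined omission, 36.7 CPM in the tryptophan/niacin-free library, 63.9 and 48.5 CPM in the methionine-free libraries and 218 CPM on normal food. The 3 single-omission libraries lay far below both others and did not overlap with them. HK2 fell on methionine-free food (log2 −1.96, SE 0.406, adjusted p = 0.00324) and was 5.93-fold lower in the tryptophan/niacin-free than in the normal library (interval 3.86 to 9.55). The combined omission was 5.42-fold above the tryptophan/niacin-free library (lower limit of the interval 3.39). HK1, the form found in nearly every tissue, had 176 CPM in the combined omission, 166 CPM in the tryptophan/niacin-free library, 205 and 134 CPM in the methionine-free libraries and 169 CPM on normal food. Its range across foods lay within the gap between the methionine-free pair.

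Within a library the ratio of the 2 hexokinases does not depend on scaling. HK2 gave 1.13 counts for each count of HK1 in the combined omission, 0.221 in the tryptophan/niacin-free library, 0.313 and 0.361 in the methionine-free libraries and 1.29 on normal food. The ratio was therefore above 1 in the combined omission (interval 0.821 to 1.56, which includes 1) and on normal food. It was below 1 in the others. In the methionine-free libraries it was 0.242 (interval 0.153 to 0.377) and 0.280 (0.171 to 0.452) of its value on normal food. In the combined omission it was 0.876 of that value, with an interval of 0.599 to 1.28 that includes 1. Per kilobase of transcript, HK2 and HK1 stood at 34.5 and 44.0 CPM in the combined omission, 6.36 and 41.5 CPM in the tryptophan/niacin-free library, 11.1 and 51.2 CPM in methionine-free replicate 1, 8.41 and 33.6 CPM in replicate 2, and 37.7 and 42.2 CPM on normal food. On that scale HK2 was below HK1 in every library. With a correction for transcript length the log2 ratio of HK2 to HK1 counts in methionine-free replicate 2 moved from −1.47 to −1.30, against 0.31 on normal food.

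**Figure D3:**
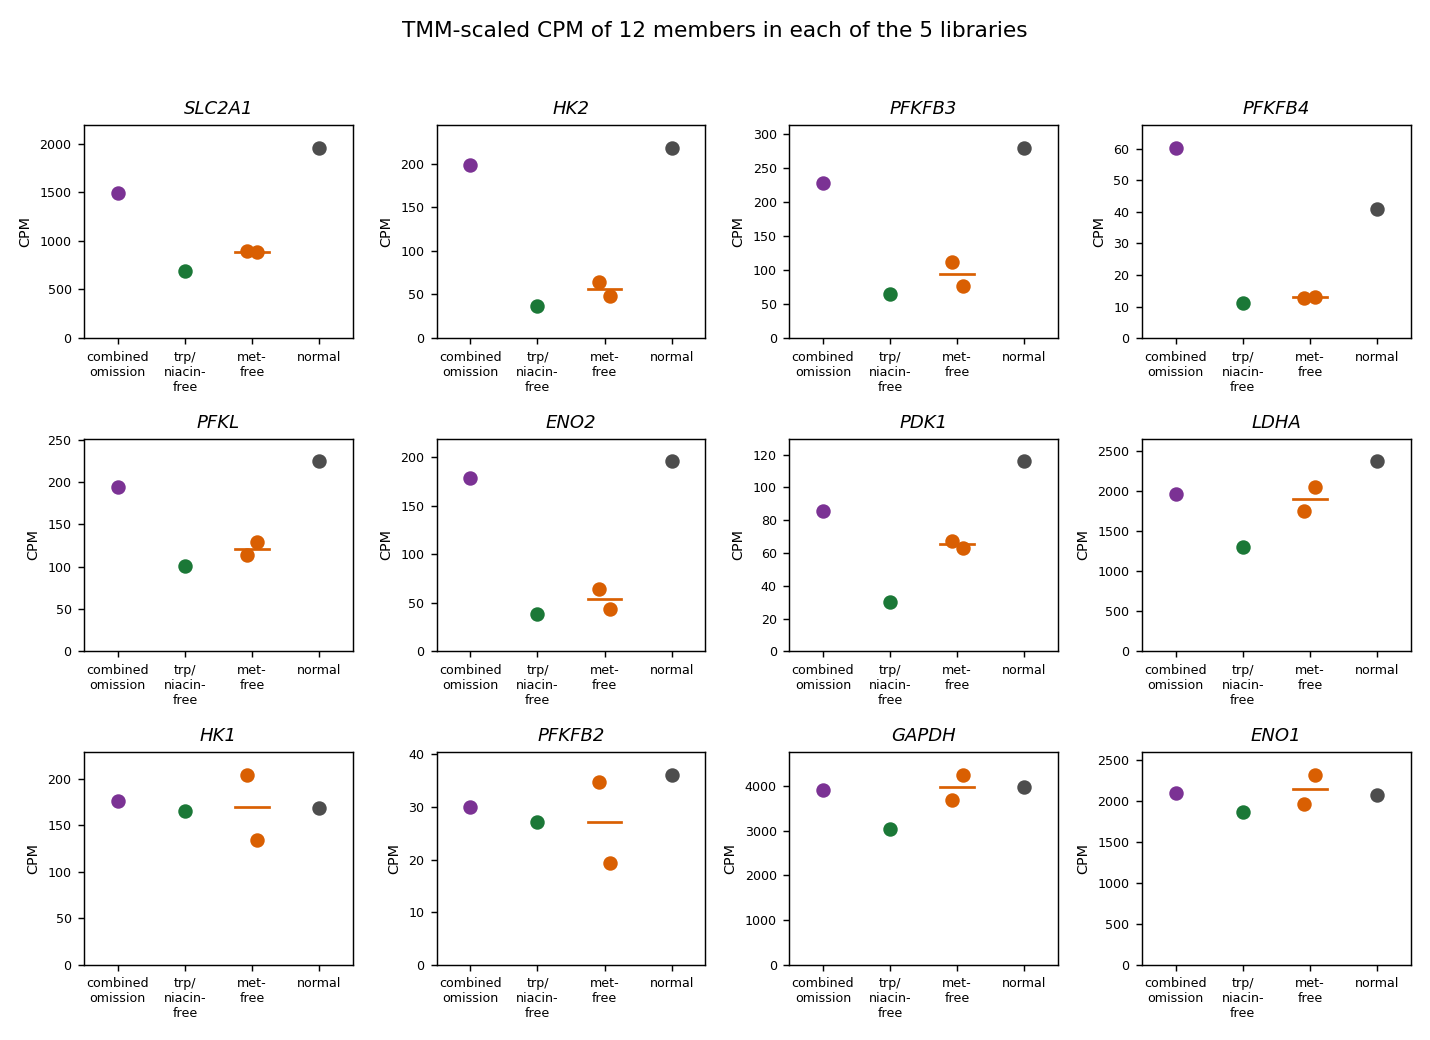
TMM-scaled CPM (y axis, from 0) of 12 members in each of the 5 libraries, by food (x axis). Points are libraries and the bar is the mean of the methionine-free pair. The upper 2 rows show SLC2A1, HK2, PFKFB3, PFKFB4, PFKL, ENO2, PDK1 and LDHA, and the lowest row HK1, PFKFB2, GAPDH and ENO1. For LDHA and for the members of the lowest row the combined-omission and normal libraries overlap with the other 3.

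Enolase makes phosphoenolpyruvate, the last step before pyruvate kinase. ENO2, the form first known from neurons, had 178 CPM in the combined omission, 38.3 CPM in the tryptophan/niacin-free library, 63.9 and 43.7 CPM in the methionine-free libraries and 196 CPM on normal food. It fell on methionine-free food (log2 −1.87, SE 0.404, adjusted p = 0.00479). It was 5.11-fold lower in the tryptophan/niacin-free than in the normal library (interval 3.34 to 8.15). ENO1, the form of most tissues, stayed between 1859 and 2317 CPM in the 5 libraries, with a log2 difference of 0.05 between methionine-free and normal food. ENO2 thus made up 7.85% of the enolase counts in the combined omission (exact Clopper-Pearson interval 6.24% to 9.71%). On normal food its share was 8.65% (7.56% to 9.83%), and in the tryptophan/niacin-free library 2.02% (1.30% to 2.99%). The methionine-free libraries had 3.16% (2.21% to 4.37%) and 1.85% (1.22% to 2.68%). Between these replicates, which share a food, the ENO2/ENO1 ratio differed as well. In replicate 2 it was 0.577 of that in replicate 1, with an interval (0.334 to 0.989) that excludes 1. The summed enolase level was 2269 CPM in the combined omission, 1898 CPM in the tryptophan/niacin-free library, 2023 and 2361 CPM in the methionine-free libraries and 2262 CPM on normal food, so the minor isoform moved while the step as a whole varied no more than the methionine-free pair did, apart from the tryptophan/niacin-free library.

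The PFKFB enzymes set the level of fructose-2,6-bisphosphate, the strongest activator of phosphofructokinase. PFKFB3, whose kinase activity far exceeds its phosphatase activity, had 229 CPM in the combined omission, 65.4 CPM in the tryptophan/niacin-free library, 111 and 76.0 CPM in the methionine-free libraries and 280 CPM on normal food. It fell on methionine-free food (log2 −1.58, SE 0.408, adjusted p = 0.048), close to the threshold. This call ended under most other settings, with an adjusted p of 0.052 with RLE scaling, 0.0594 with a correction for transcript length and 0.069 without the tryptophan/niacin-free library. PFKFB4 rested on fewer counts: 26 in the combined omission, 7 in the tryptophan/niacin-free library, 7 and 8 in the methionine-free libraries and 44 on normal food. Its level was 60.1 CPM in the combined omission, 11.2 CPM in the tryptophan/niacin-free library, 12.8 and 12.9 CPM in the methionine-free libraries and 40.8 CPM on normal food. Methionine-free food gave a log2 difference of −1.65 for PFKFB4 that did not pass the test (SE 0.553, adjusted p = 0.314). PFKFB2, known best from heart, had only 12 to 39 counts per library and lay between 19.4 and 36.2 CPM.

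The proportions of the PFKFB isoforms differed between libraries. PFKFB3 gave 7.62 counts for each count of PFKFB2 in the combined omission, 2.41 in the tryptophan/niacin-free library, 3.21 and 3.92 in the methionine-free libraries and 7.74 on normal food. Relative to normal food the ratio was 0.311 in the tryptophan/niacin-free library (interval 0.156 to 0.645) and 0.415 in methionine-free replicate 1 (0.217 to 0.815), while in replicate 2 the interval (0.238 to 1.14) included 1. PFKFB4 gave 2.00 counts for each count of PFKFB2 in the combined omission, 0.412 in the tryptophan/niacin-free library, 0.368 and 0.667 in the methionine-free libraries and 1.13 on normal food. For PFKFB4 the combined omission stood 4.86 times above the tryptophan/niacin-free library (1.43 to 17.2), a wide interval that reflects 7 counts. Between PFKFB4 and PFKFB3 the ratio in the combined omission was 1.80 times that on normal food (1.01 to 3.17), and no other pair of libraries compared had an interval that excluded 1.

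**Figure D4:**
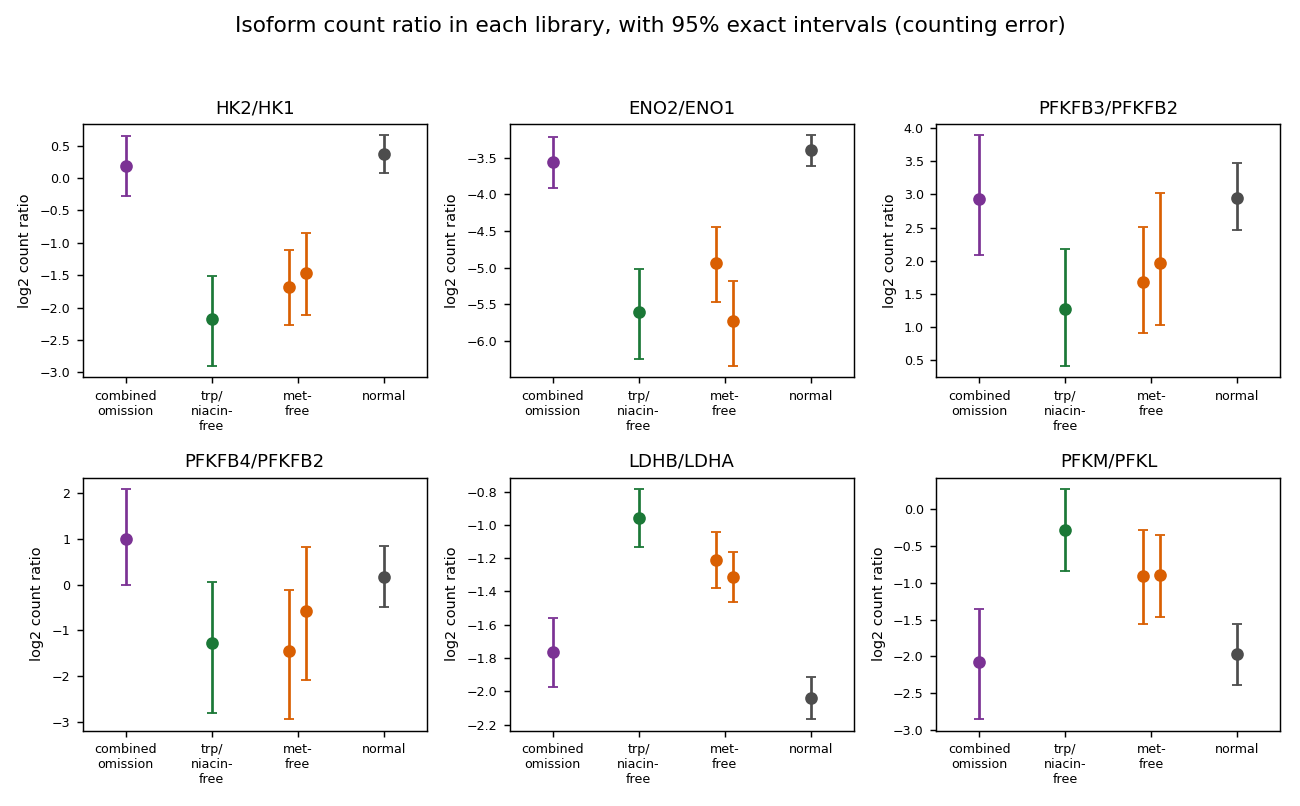
Log2 of the count ratio of 6 pairs of isoforms in each library (y axis), by food (x axis). Points are libraries and bars are 95% exact intervals for counting error. HK2/HK1 and ENO2/ENO1 are higher in the combined-omission and normal libraries than in the other 3, and LDHB/LDHA and PFKM/PFKL are lower there.

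The promoters of the 4 genes with a positive interaction, and of ENO1 as an isoform that did not pass the test, are shown because hypoxia-inducible factor binds short motifs with the core ACGTG or GCGTG. They run from 250 bases before to 50 bases after a start site of RefSeq (build GRCh38.p14, which differs from the hg19 of the counts), 5′ to 3′ along the gene. Capitals mark ACGTG or GCGTG on either strand, so CACGT and CACGC are the reverse complements, and CACGTG counts as 2 overlapping matches. HK2 has 2 windows on the plus strand, chr2:74833877-74834176 with 3 matches and chr2:74834920-74835219 with 6. ENO2 lies at chr12:6914330-6914629 on the plus strand with 1 match and ENO1 at chr1:8878637-8878936 on the minus strand with 2. PFKFB3 has windows at chr10:6144671-6144970 with 1 match and chr10:6202682-6202981 with 2, both on the plus strand, and PFKFB4 lies at chr3:48556754-48557053 on the minus strand with 1.
HK2, upstream window: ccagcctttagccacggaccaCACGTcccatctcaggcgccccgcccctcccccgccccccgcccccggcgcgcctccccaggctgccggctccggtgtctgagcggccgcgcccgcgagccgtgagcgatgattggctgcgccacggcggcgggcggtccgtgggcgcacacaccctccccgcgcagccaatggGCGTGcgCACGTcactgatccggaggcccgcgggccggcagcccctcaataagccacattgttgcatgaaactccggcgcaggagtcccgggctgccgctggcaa
HK2, downstream window: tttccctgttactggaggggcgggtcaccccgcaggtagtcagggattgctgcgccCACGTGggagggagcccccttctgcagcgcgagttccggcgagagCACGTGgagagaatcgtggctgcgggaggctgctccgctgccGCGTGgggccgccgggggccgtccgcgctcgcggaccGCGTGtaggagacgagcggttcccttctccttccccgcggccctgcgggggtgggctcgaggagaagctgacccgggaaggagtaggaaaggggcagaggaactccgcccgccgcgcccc
ENO2: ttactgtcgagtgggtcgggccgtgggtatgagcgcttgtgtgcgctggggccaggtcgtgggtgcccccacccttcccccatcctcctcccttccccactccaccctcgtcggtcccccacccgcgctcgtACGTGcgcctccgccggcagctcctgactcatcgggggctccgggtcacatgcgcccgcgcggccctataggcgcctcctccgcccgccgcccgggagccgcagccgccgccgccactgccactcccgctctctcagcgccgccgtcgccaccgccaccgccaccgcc
PFKFB3, upstream window: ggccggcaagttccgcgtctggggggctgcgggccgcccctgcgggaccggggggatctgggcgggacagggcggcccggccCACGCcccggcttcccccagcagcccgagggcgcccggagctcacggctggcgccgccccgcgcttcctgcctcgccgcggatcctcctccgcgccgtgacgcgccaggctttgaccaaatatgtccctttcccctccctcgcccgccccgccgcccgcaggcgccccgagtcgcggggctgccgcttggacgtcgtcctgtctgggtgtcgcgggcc
PFKFB3, downstream window: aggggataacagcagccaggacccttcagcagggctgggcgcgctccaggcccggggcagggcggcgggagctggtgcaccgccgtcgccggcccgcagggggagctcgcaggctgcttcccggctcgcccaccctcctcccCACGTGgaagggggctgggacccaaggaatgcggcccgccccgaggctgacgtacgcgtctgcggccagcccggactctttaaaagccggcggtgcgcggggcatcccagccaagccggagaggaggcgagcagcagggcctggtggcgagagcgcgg
PFKFB4: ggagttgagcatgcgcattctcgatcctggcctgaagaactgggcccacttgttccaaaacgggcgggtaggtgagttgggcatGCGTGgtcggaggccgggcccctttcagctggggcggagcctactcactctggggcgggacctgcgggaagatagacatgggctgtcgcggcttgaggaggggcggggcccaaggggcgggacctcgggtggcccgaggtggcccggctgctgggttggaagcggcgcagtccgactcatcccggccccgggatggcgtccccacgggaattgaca
ENO1: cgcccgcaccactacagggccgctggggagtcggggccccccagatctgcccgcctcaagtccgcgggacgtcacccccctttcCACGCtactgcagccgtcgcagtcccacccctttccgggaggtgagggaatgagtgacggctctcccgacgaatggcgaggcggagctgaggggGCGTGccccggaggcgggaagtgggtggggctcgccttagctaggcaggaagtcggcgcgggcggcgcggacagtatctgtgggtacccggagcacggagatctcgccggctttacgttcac
The motif is common. Of 35116 RefSeq promoter windows 48.4% hold it, as do 40 of the 62 windows of the 34 members that matched the table (64.5%). By gene, 52.4% of 27305 hold it in at least 1 window, as do 30 of these 34 members (88.2%). The members have more windows per gene than all RefSeq genes do, which by itself favours at least 1 match. The RefSeq genes are also not limited to those tested here, and the difference was not tested. All 7 windows printed hold it, and ENO1, which did not pass the test, holds it as often as the downstream window of PFKFB3. A match describes letters, not a site in use.

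Phosphofructokinase commits glucose to glycolysis. PFKL, the liver form, had 194 CPM in the combined omission, 100.5 CPM in the tryptophan/niacin-free library, 113 and 129 CPM in the methionine-free libraries and 224 CPM on normal food. It was 2.23-fold lower in the tryptophan/niacin-free than in the normal library (interval 1.68 to 2.99), and on methionine-free food its log2 difference of −0.88 did not pass the test (SE 0.408, adjusted p = 0.603). PFKP, the platelet form, was likewise higher in the combined-omission and normal libraries than in the other 3, with 324 CPM in the combined omission, 222 CPM in the tryptophan/niacin-free library, 210 and 228 CPM in the methionine-free libraries and 346 CPM on normal food. PFKM, the muscle form, was lower in the combined-omission and normal libraries than in the other 3, on 20 to 62 counts per library. Its interaction was the lowest of the trunk (−1.02, SE 0.693) and did not pass the test. Its level was 46.3 CPM in the combined omission, 83.0 CPM in the tryptophan/niacin-free library, 60.3 and 69.6 CPM in the methionine-free libraries and 57.5 CPM on normal food. PFKM gave 0.238 counts for each count of PFKL in the combined omission, 0.825 in the tryptophan/niacin-free library, 0.532 and 0.537 in the methionine-free libraries and 0.256 on normal food. Against normal food the ratio was 3.22 times higher in the tryptophan/niacin-free library (1.97 to 5.24) and 2.08 (1.21 to 3.54) and 2.098 (1.28 to 3.42) times higher in the methionine-free libraries. PFKM has the shorter transcript (3579 against 6007 bases). With a correction for transcript length the log2 ratio in methionine-free replicate 2 moved from −0.90 to −1.13, against −1.88 on normal food. The tryptophan/niacin-free library is the one with muscle myosin counts, and their part in the PFKM value was not tested.

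No member of the rest of the glycolytic trunk passed a test or the size rule. GAPDH, which makes the NADH of glycolysis, had 3898 CPM in the combined omission, 3026 CPM in the tryptophan/niacin-free library, 3685 and 4249 CPM in the methionine-free libraries and 3965 CPM on normal food. Per kilobase of transcript it was the highest of the members in every library, at 1614 to 2266 CPM. Against normal food its log2 difference was 0.00 on methionine-free food. ALDOA, which cleaves fructose-1,6-bisphosphate, had 1541 CPM in the combined omission, 946 CPM in the tryptophan/niacin-free library, 1259 and 1469 CPM in the methionine-free libraries and 1843 CPM on normal food. ALDOC, the brain form, had 39.9 to 74.2 CPM, and its ratio to ALDOA had no interval that excluded 1 between any of the pairs of libraries compared. GPI, which interconverts glucose and fructose phosphates, had 622 CPM in the combined omission, 397 CPM in the tryptophan/niacin-free library, 413 and 484 CPM in the methionine-free libraries and 694 CPM on normal food. PGK1, which makes the first ATP of the pathway, had 744 CPM in the tryptophan/niacin-free library and 1027 to 1326 CPM in the other 4. PKM, the pyruvate kinase of tumours, lay between 1862 and 2475 CPM, and gene counts do not separate its splice forms. TPI1 lay between 840 and 1256 CPM and PGAM1, a mutase, between 268 and 544 CPM, each lowest in the tryptophan/niacin-free library and highest in methionine-free replicate 2. On methionine-free food the 13 trunk members had a median log2 difference from normal food of −0.25, and 5 of 13 lay above 0. In the tryptophan/niacin-free library 1 of 13 lay above normal food, PFKM. GPI, TPI1, PGK1, PGAM1 and ENO1 carried decimals in some library, as did SLC2A1, PFKM and PDHA1, so their counts were estimated in part. What gave the decimals was not tested, and the values of these genes are less certain.

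**Figure D5:**
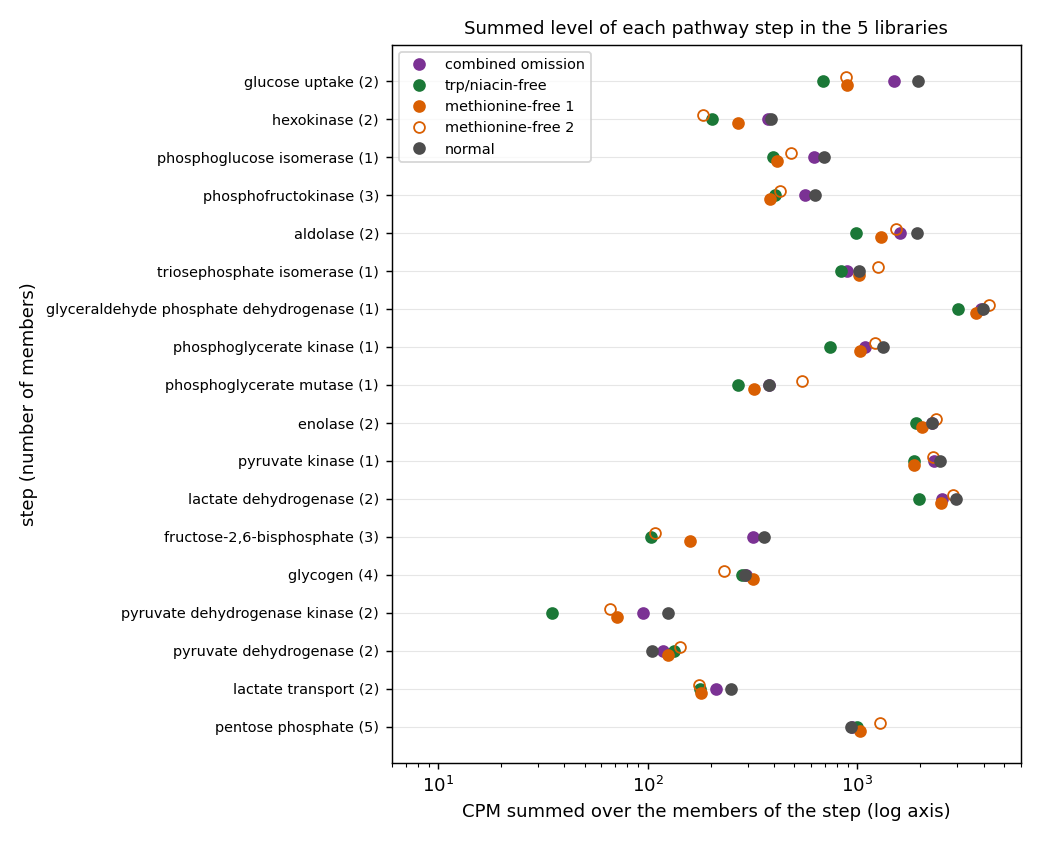
CPM summed over the members of each pathway step (x axis, log scale) for each step (y axis, with the number of members) in the 5 libraries. For fructose-2,6-bisphosphate, glucose uptake and hexokinase the combined-omission and normal libraries lie to the right of the other 3, while enolase and GAPDH lie close together.

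Together the 13 trunk members made up 1.36% of the combined-omission library, 1.04% of the tryptophan/niacin-free library, 1.20% and 1.44% of the methionine-free libraries and 1.47% of the normal library. The tryptophan/niacin-free library was thus the lowest. The gap between the methionine-free replicates, which share a food, was wider than that between the combined omission and normal food.

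Lactate dehydrogenase interconverts pyruvate and lactate. LDHA, the form that favours lactate, had 1959 CPM in the combined omission, 1294 CPM in the tryptophan/niacin-free library, 1743 and 2042 CPM in the methionine-free libraries and 2366 CPM on normal food. LDHB, the form of heart and other oxidative tissue, had 576 CPM in the combined omission, 667 CPM in the tryptophan/niacin-free library, 755 and 824 CPM in the methionine-free libraries and 576 CPM on normal food. Neither passed the test in any tested comparison. Their ratio had less counting error than most, since both had 249 counts or more. LDHB gave 0.294 counts for each count of LDHA in the combined omission, 0.515 in the tryptophan/niacin-free library, 0.433 and 0.403 in the methionine-free libraries and 0.243 on normal food. Relative to normal food that was 1.21 times in the combined omission (interval 1.02 to 1.43), 2.12 times in the tryptophan/niacin-free library (1.82 to 2.46), and 1.78 (1.53 to 2.06) and 1.66 times (1.44 to 1.90) in the methionine-free libraries. The methionine-free replicates differed by a ratio of 0.932 with an interval (0.796 to 1.09) that included 1. LDHB has the shorter transcript (1538 against 2416 bases), and short transcripts ran high in replicate 2. With a correction for transcript length the log2 ratio in replicate 2 moved from −1.31 to −1.51. Replicate 1 then lay at −1.22 and normal food at −1.98. Of the lactate transporters, SLC16A3, the exporter MCT4, had 120 CPM in the combined omission, 86.2 CPM in the tryptophan/niacin-free library, 98.7 and 68.0 CPM in the methionine-free libraries and 145 CPM on normal food, a log2 difference of −0.80 between methionine-free and normal food that did not pass the test. SLC16A1, the transporter MCT1, lay between 80.4 and 107 CPM, the methionine-free replicates at either end.

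Pyruvate dehydrogenase feeds pyruvate into the citric acid cycle, and PDK1, a kinase that inactivates it, was the member with the largest log2 difference between the tryptophan/niacin-free and the methionine-free libraries. PDK1 had 85.6 CPM in the combined omission, 30.3 CPM in the tryptophan/niacin-free library, 67.6 and 63.1 CPM in the methionine-free libraries and 116 CPM on normal food. It was 3.82-fold lower in the tryptophan/niacin-free than in the normal library (interval 2.35 to 6.56), with 19 counts against 125. The PDK1 transcript is long (14193 bases), and long transcripts ran low in methionine-free replicate 2. With a correction for transcript length the log2 difference between methionine-free and normal food moved from −0.83 to −0.28. The interaction for PDK1 was 2.32 and did not pass the test (SE 0.692, adjusted p = 0.120). PDK3, another kinase of the family, had 2 to 10 counts per library and was not tested. Its level was 9.25 CPM in the combined omission, 4.79 CPM in the tryptophan/niacin-free library, 3.65 and 3.24 CPM in the methionine-free libraries and 9.27 CPM on normal food, near the floor of 3 counts in the single-omission libraries. The enzyme's own subunits did not follow PDK1. PDHA1 had 64.8 CPM in the combined omission, 95.8 CPM in the tryptophan/niacin-free library, 87.7 and 82.5 CPM in the methionine-free libraries and 74.2 CPM on normal food, and PDHB lay between 30.6 and 59.9 CPM, the methionine-free replicates at 36.5 and 59.9 CPM.

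The pentose phosphate members lay slightly above normal food when methionine was left out alone. All 5 had a positive log2 difference on methionine-free food, with a median of 0.38, but none passed the test. The transcripts of PGD, TALDO1, RPIA and DERA are short (1346 to 1885 bases), and short transcripts as a group ran high in the methionine-free libraries, most in replicate 2. With a correction for transcript length the median was 0.29 and TALDO1 lay at −0.02, below 0. Their summed level was 939 CPM in the combined omission, 1001 CPM in the tryptophan/niacin-free library, 1032 and 1278 CPM in the methionine-free libraries and 933 CPM on normal food, so the methionine-free replicates differed from each other by more than replicate 1 differed from normal food. DERA, which breaks deoxyribose phosphate down, moved most, with 20.8 CPM in the combined omission, 41.5 CPM in the tryptophan/niacin-free library, 67.6 and 79.3 CPM in the methionine-free libraries and 37.1 CPM on normal food. Its log2 difference was 0.99 between methionine-free and normal food (SE 0.444, adjusted p = 0.594), and its interaction was −1.97 (SE 0.797, adjusted p = 0.544). The combined omission held only 9 counts of DERA. RPIA, which makes ribose phosphate, had 39.3 CPM in the combined omission, 36.7 CPM in the tryptophan/niacin-free library, 51.2 and 55.0 CPM in the methionine-free libraries and 36.2 CPM on normal food. PGD, an NADPH-producing dehydrogenase of the oxidative branch, lay between 143 and 207 CPM, TALDO1, the transaldolase, between 284 and 443 CPM, and TKT, the transketolase, between 391 and 494 CPM, each highest in methionine-free replicate 2. The interaction was below 0 for all 5, none of them past the threshold.

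No glycogen member passed a test or the size rule. GYS1, glycogen synthase, had 99.5 CPM in the combined omission, 79.8 CPM in the tryptophan/niacin-free library, 96.8 and 63.1 CPM in the methionine-free libraries and 109 CPM on normal food. PYGL, which releases glucose from glycogen, had 99.5 CPM in the combined omission, 131 CPM in the tryptophan/niacin-free library, 113 and 59.9 CPM in the methionine-free libraries and 87.1 CPM on normal food. PGM1, which links glucose phosphates to glycogen, had 81.0 CPM in the combined omission, 59.1 CPM in the tryptophan/niacin-free library, 98.7 and 100.3 CPM in the methionine-free libraries and 79.7 CPM on normal food. For GYS1 and PYGL the methionine-free replicates lay further apart than the other 3 libraries did among themselves. GBE1, the branching enzyme, had 5 to 16 counts per library and was not tested, with 8.09 to 14.8 CPM.

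Beside the members, 40 other genes of these pathways were followed as a list, of which 39 were listed and 27 could be tested. By edgeR's test 0 of 27 passed in any of the 4 tested comparisons, with 2 at an unadjusted p for methionine-free against normal food, 1 for the combined omission against methionine-free food, 1 for tryptophan/niacin-free against methionine-free food and 2 for the interaction, where 7.68%, 7.57%, 4.91% and 6.45% of all genes passed in these 4 comparisons. DESeq2 and limma-voom also called 0 in each. The median log2 difference was 0.05 between methionine-free and normal food and 0.06 in the interaction. By the size rule 1 of 27 was lower in the tryptophan/niacin-free than in the normal library, HKDC1, a further hexokinase family member, with 49.5 CPM against 121 CPM, where 2.51% of all genes were lower. Between the combined omission and the tryptophan/niacin-free library 1 was higher, TIGAR, a phosphatase that lowers fructose-2,6-bisphosphate, with 14 counts against 6, where 2.31% of all genes were higher. The methionine-free replicates, which share a food, differed by the same rule in 2 of 27, where 6.6% of all genes did.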

How the data were processed

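The authors deposited expected counts, estimated counts per gene symbol that need not be whole (15.2% to 17.6% of values above 0 carried decimals). Per the labels' protocols a stranded mRNA kit was used. Per the submitters' processing notes, the tools included featureCounts, Subread 2.0.0, SAMtools 0.1.18, Bowtie2 2.2.8 and TopHat2 2.1.1, with build hg19. Not given in the sources used here are the annotation, the strand setting of the counting and any removal of mouse reads. Mouse reads, overlapping genes and near-identical copies could therefore add counts, and overlapping genes and near-identical copies could also take counts away.

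Counts were rounded. A filter on the 4 diets (filterByExpr) kept 10005 of 26364 genes. The main test was quasi-likelihood in edgeR 4.0.16 (R 4.3.3, limma 3.58.1, TMM, 1 mean per diet over 5 libraries, 1 residual degree of freedom, biological coefficient of variation 0.207, Benjamini-Hochberg adjustment over all genes tested). The prior degrees of freedom of this fit were infinite, so the spread was pooled over genes. Lone libraries were compared by a size rule with prior count 2. Isoform ratios carry exact 95% intervals, Clopper-Pearson within a library and exact conditional between libraries. The fit was also run on simulated counts with the same spread for every gene and no effect of transcript length. That run does not show how well the fit holds for these libraries. The methionine-free libraries were distinct (chi-square 37911.6 on 10003 degrees of freedom). Alternatives were RLE and total-count scaling, no filter, DESeq2 1.42.0, limma-voom, a length offset (longest GENCODE 29 transcript), other size rules and leaving out each library. Named genes are those past a test or the size rule, their isoform partners and the extremes of each branch. The members and lists were chosen with earlier results of these data known.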

Additional observations from a re-analysis of the deposited data

Results flagged for a closer look

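In 4 members the effect of leaving out methionine differed with and without tryptophan and niacin in the food, by the test of that difference. On the log2 scale the difference was 4.39 for HK2, 4.08 for ENO2, 4.06 for PFKFB4 and 3.39 for PFKFB3. The opposite signs of the underlying effects are in the report. The contrast sets the combined-omission and normal libraries against the other 3, which is also the split by style of library title, so diet and handling cannot be told apart. No group had 4 libraries, so no library was checked as an outlier.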

How the results depend on the processing

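DESeq2 ended all calls: 0 members for methionine-free against normal food, in place of 3, and 0 for the interaction, in place of 4. The interaction calls of HK2, ENO2, PFKFB3 and PFKFB4 held under RLE and total-count scaling, no filter, limma-voom and the length correction, which added SLC2A1 (adjusted p = 0.0146) for a count of 5. HK2 passed in the combined omission against methionine-free food under total-count scaling, limma-voom and without the normal library (adjusted p = 0.0491, 0.0284 and 0.0275), a count of 1 in place of 0; leaving out the other lone library gave 0. The call of PFKFB3 for methionine-free against normal food was also lost under total-count scaling, no filter and limma-voom (adjusted p = 0.0619, 0.0806 and 0.0976). The member median moved from −0.20 to −0.27 under total-count scaling and to −0.15 under the length correction for methionine-free against normal food, from −0.28 to −0.17 and −0.20 for tryptophan/niacin-free against methionine-free food, and from 0.46 to 0.59 under the length correction for the interaction. Total-count scaling put the median of all genes for tryptophan/niacin-free against methionine-free food at 0.09, from −0.02. The sign of PDK1 in the combined omission against methionine-free food reversed to −0.13 under the length correction. A 1.5-fold size rule gave 14 members in place of 7 for tryptophan/niacin-free against normal food, all lower (8.78% of all genes in place of 3.52%), and 11 in place of 6 for the combined omission against tryptophan/niacin-free food, 10 higher and PFKM lower (8.18% of all genes in place of 4.04%). The causes were not tested. Without either methionine-free replicate no residual degree of freedom remains, so there is no test: the interaction median was 0.41 and 0.48, HK2 lay at 4.20 to 4.59, ENO2 at 3.82 to 4.37, PFKFB3 at 3.13 to 3.68 and PFKFB4 at 4.05 to 4.07, and the median of the combined omission against methionine-free food ran from −0.03 to 0.16. No paired analysis was possible because 3 of the 4 foods had 1 library each. Depth limits the precision of members with few counts, among them PFKFB4, PFKFB2, PDK3 and GBE1.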
